A study of Mus musculus with 6 samples.

Results

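Cells detect viral RNA, and misplaced RNA of their own, with a small set of receptors, and 8 genes of that system are described here, chosen by name from a table of 25189 gene symbols. They are the cytosolic sensors Ddx58 (RIG-I), Ifih1 (MDA5) and Dhx58 (LGP2), the endosomal sensor Tlr3, the adaptor Mavs, the kinase Tbk1, and the RNA-binding enzymes Eif2ak2 (PKR) and Adar. Of the 8 symbols, 7 had a row under that name, and Ddx58 was taken from the row named Rigi, its newer symbol. RNA was sequenced in 6 libraries labelled as kidney tissue, all from male C57BL/6 mice of genotype WT at day 2, and 3 of them came from ischaemia and reperfusion (I/R) with the peptide chemerin-9 and 3 from I/R alone. I/R, the stopping and restoring of blood flow, was thus shared by both groups, and no uninjured kidney was analysed here. The columns read as chemerin-9 are named with the letters IC in the table, while the labels name other columns for that group, so every statement on chemerin-9 rests on taking IC to stand for I/R with C9. The titles of all 3 such libraries name C9, while the treatment field of 1 of them reads C9 and those of the others C10 and C11, and the titles were followed.

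RIG-I-like receptors are helicases that bind double-stranded RNA in the cytosol. RIG-I and MDA5 then engage MAVS on the outer mitochondrial membrane, and MAVS recruits kinases, TBK1 among them, that activate the transcription factors IRF3 and IRF7 and so type I interferon. LGP2 lacks the signalling domains of its relatives and tunes their output. TLR3 reads double-stranded RNA in endosomes and signals through the adaptor TRIF, encoded by Ticam1. PKR, when bound to double-stranded RNA, phosphorylates the initiation factor eIF2alpha and slows translation, and ADAR1 edits adenosine to inosine in such RNA and so keeps the cell's own RNA from MDA5. Interferon is known to induce the RIG-I-like receptors and PKR in turn, through response elements of the ISRE type.

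Markers of the labelled tissue were low in both groups. The libraries held 11217252 to 14004529 counts with chemerin-9 and 13069464 to 16938301 counts in I/R. Of 9 nephron markers 5 had a row, none of them at 0 throughout. These summed to 6.41 to 7.62 CPM (counts scaled to library size) with chemerin-9 and 6.65 to 7.06 CPM in I/R. Of 11 leukocyte markers only 4 had a row, and summed to 4.53 to 6.78 CPM with chemerin-9 and 4.61 to 6.09 CPM in I/R. Of 5 endothelium markers 3 had a row, and summed to 0.87 to 1.99 CPM with chemerin-9 and 0.55 to 0.97 CPM in I/R. The 4 dividing-cell markers summed to 3074 to 3176 CPM with chemerin-9 and 3174 to 3326 CPM in I/R, and 6 fibroblast markers to 1178 to 1224 CPM with chemerin-9 and 1192 to 1260 CPM in I/R. These sums hide changes of single markers. In the test below, 2 fibroblast markers were higher and 1 lower, and 1 dividing-cell marker was lower, beside 25.6% higher and 26.1% lower over all tested genes. The share of 18S RNA was 0.261% to 0.306% of counts with chemerin-9 and 0.381% to 0.517% in I/R, and that of mitochondrial transcripts 2.56% to 2.64% with chemerin-9 and 2.81% to 2.94% in I/R, and their part in the results below was not tested. Each library has its own batch value in the labels, so batch and treatment cannot be told apart. No label ties a library to a mouse of its own, so the p-values measure the spread among the 6 libraries alone, and that spread may be technical.

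With chemerin-9, 6 of the 8 genes fell and none rose, all 8 having passed the filter on low counts. The 3 cytosolic sensors fell most, Dhx58 to 23.9% of its I/R level, Ifih1 to 55.2% and Ddx58 to 56.6%, Eif2ak2 to 66.6%, and Mavs and Adar only to 86.4% and 88.3%. Tlr3 and Tbk1 did not pass the test. Over all 14184 genes that entered edgeR's quasi-likelihood test, at a Benjamini-Hochberg adjusted p under 0.05, 26.1% were called lower, 25.6% higher and 51.7% in either direction. Of these calls 50.4% were thus lower, and 39.3% with plain library totals. A fall past the threshold was therefore common, and its size separates the members more than the call does: 4 of the 8 fell by at least 1.5-fold, beside 7.76% of all tested genes. The fourth of these, Eif2ak2, stood at 1.501-fold, and the count was 3 with upper quartile factors, with plain library totals and without chemerin-9 replicate 1, chemerin-9 replicate 2 or I/R replicate 1. The 3 values of the groups did not overlap, lower with chemerin-9, in 6 of the 8 members and in 29.2% of all tested genes, and in either direction in 58.5% of them. The median log2 fold change was -0.40 over the 8 members and -0.0037 over all tested genes. In bulk RNA, fewer cells that express a gene and less RNA per cell cannot be told apart.

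**Figure D1:**
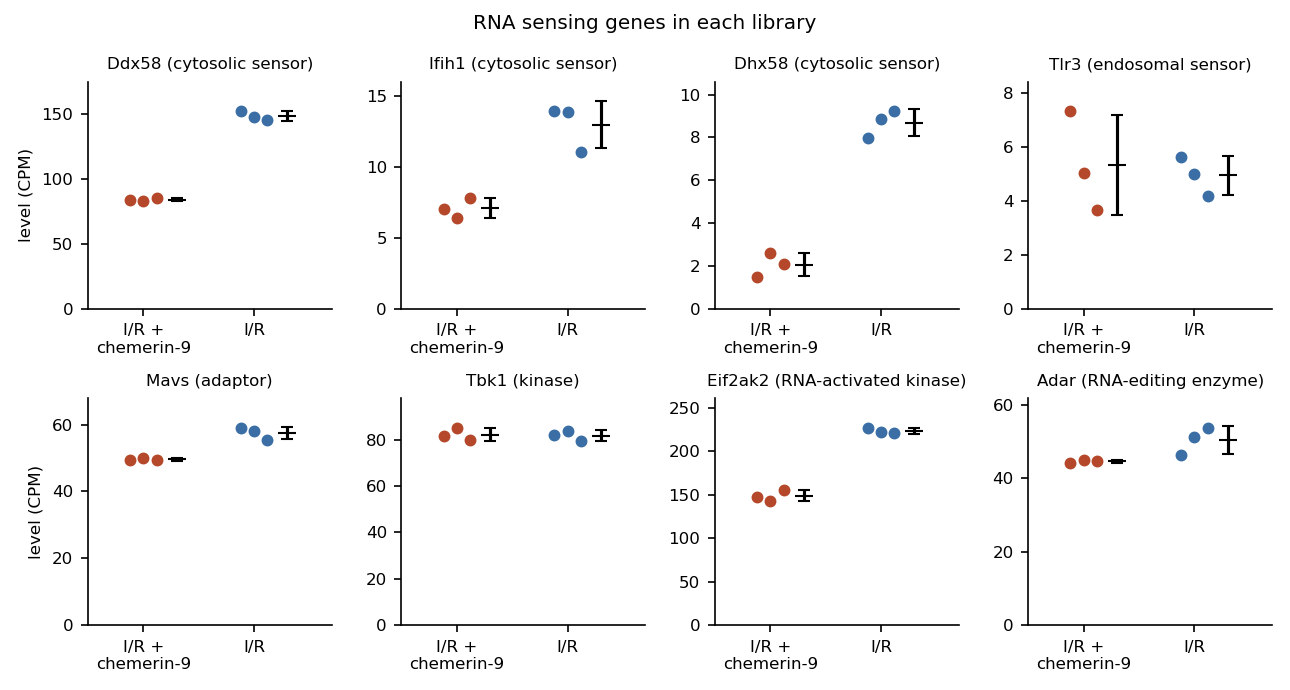
Level of each of the 8 genes in CPM (vertical axis, from 0) in the 3 I/R with chemerin-9 libraries (left) and the 3 I/R libraries (right), 1 point per library, with the mean and SD beside them. The groups are apart for the 3 cytosolic sensors, Mavs, Eif2ak2 and Adar, and overlap for Tlr3 and Tbk1.

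Ddx58 encodes RIG-I, which recognises short double-stranded RNA with a 5′ triphosphate, and it was the most abundant of the 4 sensors. It held 83.3, 83.0 and 85.1 CPM with chemerin-9, against 152, 147 and 145 CPM in I/R. All 3 chemerin-9 libraries lay below all 3 I/R libraries, and the spread within each group was small, at 1.38% of the mean with chemerin-9 and 2.40% in I/R. The log2 fold change was -0.82 (standard error 0.041, 95% interval -0.91 to -0.73, adjusted p = 8.3e-10, edgeR). The gene lies on chromosome 4, 40203773 to 40239828, minus strand (GRCm38, GENCODE M21, ENSMUSG00000040296). Only 4.65% of the tested genes had a log2 fold change as low or lower.

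Ifih1 encodes MDA5, the sensor of long double-stranded RNA. Its level was 7.06, 6.41 and 7.83 CPM with chemerin-9, against 13.9, 13.9 and 11.04 CPM in I/R. The lowest I/R library, replicate 3, still lay above every chemerin-9 library. The log2 fold change was -0.86 (standard error 0.14, 95% interval -1.15 to -0.57, adjusted p = 9.1e-05, edgeR), an interval that held that of Ddx58 within it. Behind these values stood 81 to 112 counts per library with chemerin-9 and 178 to 187 in I/R. Ifih1 lies on chromosome 2, 62595798 to 62646255, minus strand.

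Dhx58 encodes LGP2, the third RIG-I-like receptor, and fell furthest of the 8. Its values were 1.48, 2.58 and 2.10 CPM with chemerin-9, against 7.99, 8.84 and 9.22 CPM in I/R. The groups were far apart, although the chemerin-9 values rested on 17, 35 and 30 counts, against 102, 119 and 152 in I/R. The log2 fold change was -2.06 (standard error 0.19, 95% interval -2.47 to -1.65, adjusted p = 4.8e-07, edgeR), an interval that lay wholly below those of Ddx58 and Ifih1. Among all tested genes 0.226% fell as far or further. Dhx58 lies on chromosome 11, 100694884 to 100704271, minus strand. The antisense gene Dhx58os shares 4.31% of its exon bases and had 0 counts in every chemerin-9 library and 2 to 3 in I/R.

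Tlr3, the endosomal sensor of the set, did not pass the test. It held 7.32, 5.01 and 3.64 CPM with chemerin-9, against 5.64, 4.98 and 4.19 CPM in I/R. The groups overlapped, and the chemerin-9 libraries were the more scattered, with an SD of 1.86 CPM, against 0.726 CPM in I/R. The log2 fold change was 0.099 (standard error 0.23, adjusted p = 0.743, edgeR), and its 95% interval, from 76.5% to 150% of the I/R level, excluded a fall of the size seen in Ddx58 or Dhx58. The sign of this value was not stable, since it was -0.19 without chemerin-9 replicate 1. Tlr3 lies on chromosome 8, 45395665 to 45411080, minus strand, and 7.32% of its exon bases are shared with an antisense gene, Gm45542. Whether the counting used strand is not stated, so the split of reads between such pairs is uncertain.

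**Figure D2:**
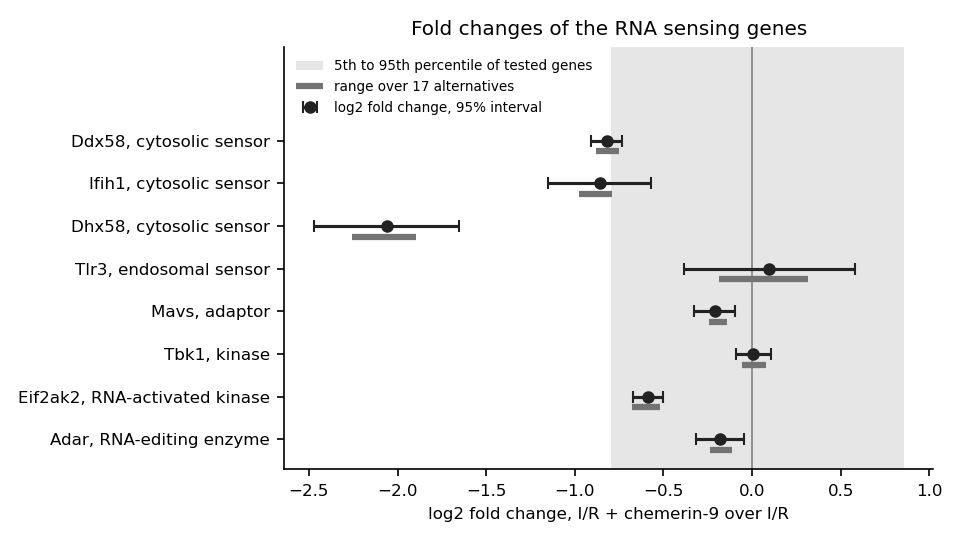
Log2 fold change of each gene, I/R with chemerin-9 over I/R (horizontal axis), with its 95% interval (black) and its range over 17 alternative analyses (grey bar). The shaded band holds the 5th to 95th percentile of all tested genes, from -0.80 to 0.86; Dhx58 lies outside it, Ddx58 and Ifih1 just outside its edge, and Tbk1 and Tlr3 near 0.

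The adaptor and the kinase below the sensors moved little. Mavs, on which RIG-I and MDA5 both converge, held 49.3, 50.1 and 49.5 CPM with chemerin-9, against 59.1, 58.0 and 55.4 CPM in I/R. Its groups did not overlap, but the fall was small, its log2 fold change being -0.21 (standard error 0.054, 95% interval -0.33 to -0.096, adjusted p = 0.00415, edgeR). Tbk1, the kinase that phosphorylates IRF3, held 81.7, 85.3 and 80.0 CPM with chemerin-9, against 82.3, 84.0 and 79.5 CPM in I/R. The groups overlapped. The log2 fold change of Tbk1 was 0.0083 (standard error 0.047, adjusted p = 0.90, edgeR), and its 95% interval held the level with chemerin-9 between 93.8% and 108% of that in I/R. Mavs lies on chromosome 2, 131234063 to 131248025, plus strand, and Tbk1 on chromosome 10, 121546455 to 121586787, minus strand.

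Each sensor, Eif2ak2 and Adar were set against Mavs and Tbk1 within each library, as the ratio of their counts, which no size factor affects. Mavs and Tbk1 served as common references, also for Tlr3, whose product signals through TRIF, and for Eif2ak2 and Adar. Relative to Mavs, Ddx58 stood at 1.69, 1.66 and 1.72 with chemerin-9, against 2.57, 2.54 and 2.61 in I/R. Relative to Tbk1, it stood at 1.02, 0.972 and 1.06 with chemerin-9, against 1.85, 1.76 and 1.82 in I/R. Thus Ddx58 had about as many counts as Tbk1 in every chemerin-9 library, and clearly more in every I/R library. The ratio of Dhx58 to Tbk1 averaged 0.0253 ± 0.0061 with chemerin-9 and 0.107 ± 0.0095 in I/R, and that of Ifih1 to Tbk1 averaged 0.0869 ± 0.011 with chemerin-9 and 0.158 ± 0.017 in I/R (SD, n = 3 each). Eif2ak2 relative to Tbk1 averaged 1.81 ± 0.13 with chemerin-9 and 2.73 ± 0.075 in I/R. The ratios of these 4 genes to Mavs and to Tbk1 were lower in all 3 chemerin-9 libraries than in any I/R library. Tlr3 overlapped in both ratios, and Adar overlapped relative to Mavs but was lower in all 3 relative to Tbk1. Tbk1 relative to Mavs was itself higher with chemerin-9, at 1.66 ± 0.042, against 1.42 ± 0.029 in I/R. An exact two-sided permutation test of 3 against 3 libraries cannot go below p = 0.1, and the 13 ratios compared had p of 0.1 to 0.9, or 0.13 to 0.9 after Benjamini-Hochberg adjustment.

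**Figure D3:**
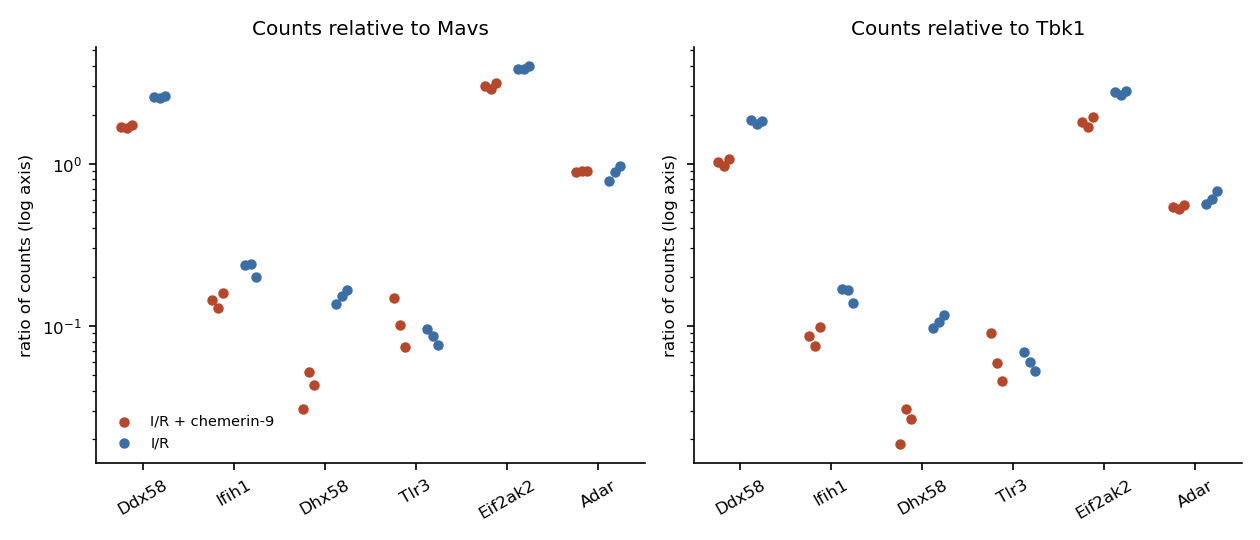
Counts of each sensor or effector divided by those of Mavs (left panel) or Tbk1 (right panel) in the same library, on a log axis, 1 point per library, with I/R with chemerin-9 to the left of I/R for each gene. Ddx58, Ifih1, Dhx58 and Eif2ak2 separate the groups in both panels and Tlr3 in neither.

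Of the 2 genes of enzymes that act on double-stranded RNA, Eif2ak2 fell clearly and Adar barely. Eif2ak2, the gene of PKR, held 148, 143 and 156 CPM with chemerin-9, against 227, 222 and 221 CPM in I/R. The groups were well apart, and the log2 fold change was -0.59 (standard error 0.040, 95% interval -0.67 to -0.50, adjusted p = 1.7e-08, edgeR). Adar held 44.0, 45.0 and 44.6 CPM with chemerin-9, against 46.3, 51.1 and 53.8 CPM in I/R. All chemerin-9 values of Adar were below all I/R values, yet I/R replicate 1 lay close to them. The log2 fold change was -0.18 (standard error 0.064, 95% interval -0.32 to -0.043, adjusted p = 0.0289, edgeR), and the call ended in 7 of 17 alternatives, among them DESeq2 (adjusted p = 0.0667), plain library totals (0.159) and 5 of the 6 analyses that left out 1 library, over a range of 0.0073 to 0.159. Eif2ak2 lies on chromosome 17, 78852564 to 78882573, minus strand, and Adar on chromosome 3, 89715022 to 89753446, plus strand. Counts per gene do not tell the interferon-inducible long form of ADAR1 from its constitutive short form. Of the exon bases of Adar, 16.8% are shared with Chrnb2 on the opposite strand, a gene that held 74 to 80 counts with chemerin-9 and 48 to 75 in I/R.

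Scaled to exon length, the 8 genes spanned a wide range of levels, and their order differed between the groups. With chemerin-9, Eif2ak2 led at 29.1 ± 1.2 CPM per kilobase, followed by Tbk1 at 21.1 ± 0.70, Mavs at 14.8 ± 0.13, Ddx58 at 11.9 ± 0.16 and Adar at 5.49 ± 0.063. Tlr3 (1.02 ± 0.36), Ifih1 (0.870 ± 0.087) and Dhx58 (0.627 ± 0.17) came last, and these 3 did not differ beyond their spread. In I/R, Eif2ak2 stood at 43.7 ± 0.64 CPM per kilobase, Ddx58 at 21.003 ± 0.504 and Tbk1 at 20.949 ± 0.576, the last pair being indistinguishable, and Mavs followed at 17.2 ± 0.57 and Adar at 6.21 ± 0.47. Dhx58 held 2.65 ± 0.19, Ifih1 1.59 ± 0.20 and Tlr3 0.948 ± 0.14 CPM per kilobase in I/R (SD, n = 3 each). The scale divides by all annotated exon bases of a gene, whichever of its transcripts were expressed. On this scale Ddx58 ranked above Mavs in I/R and below it with chemerin-9. In counts, Ddx58 exceeded Mavs in every library of both groups. Dhx58 ranked above Tlr3 in I/R, while with chemerin-9 their levels did not differ beyond their spread.

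**Figure D4:**
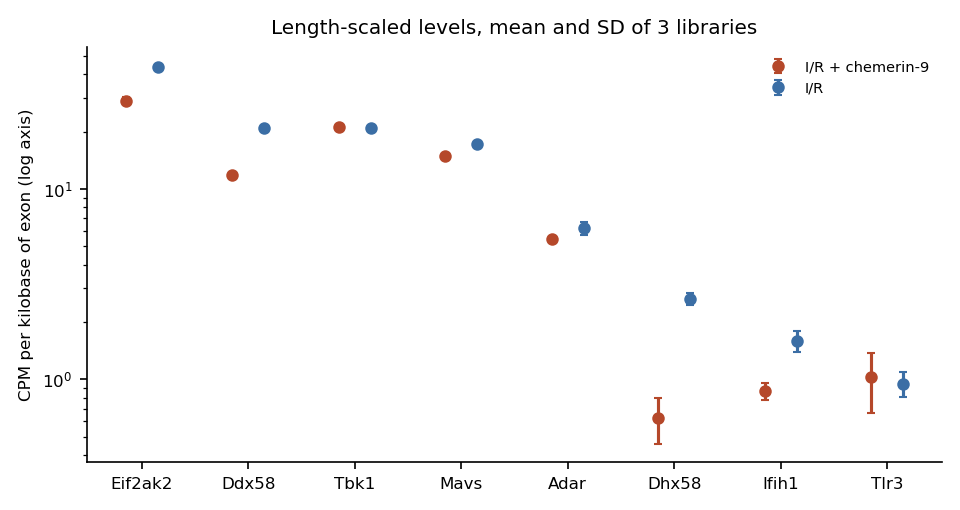
Mean level of each gene in CPM per kilobase of exon (log axis) with the SD of 3 libraries, I/R with chemerin-9 left of I/R, genes ordered by their level in I/R. Ddx58 and Tbk1 stand apart with chemerin-9 at 11.9 and 21.1 and coincide in I/R at 21.003 and 20.949.

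Promoter letters were read for the members because interferon response elements are known from several of them, and the stretches that hold such letters are shown. RefSeq windows of GRCm38.p6, from 250 bases before to 50 after the start of a transcript, were given for 7 of the 8 members, the exception being Dhx58. The ISRE core, which is GAAA, any 2 bases and GAAA again on either strand, occurred in the windows of Ddx58, Ifih1 and Eif2ak2 and in none of Tlr3, Mavs, Tbk1 or Adar. Of all 27025 genes with a window, 3.99% held this core. In each of the 3 genes the match lay just after the annotated start, with its first base 2, 32 and 18 bases downstream of the first transcribed base. The match of Ddx58 is on the opposite strand and lies within a match of the longer form, in which CT follows the core and which 0.303% of genes held. With only 1 base between the GAAA repeats, a form added after the promoters were read and present in 3.70% of genes, there was a match in Ddx58, 60 bases before the start, and in Adar, after the start of the last of its 3 windows. A GAS element, TTCNNNGAA, was found in the windows of Eif2ak2 and of Adar and in 9.55% of genes. A match describes letters only, and an absent match says only that these letters are not in the window. In the lines below, read 5′ to 3′ on the strand of the gene, capitals mark the ISRE core or its form with 1 base between the repeats, and the letters that only the longer form or the GAS element adds are in lower case.
Ddx58, chr4:40239826-40239925, minus strand, the 100 bases before the start: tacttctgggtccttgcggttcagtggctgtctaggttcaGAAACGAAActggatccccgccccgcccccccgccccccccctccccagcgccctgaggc
Ddx58, chr4:40239796-40239825, minus strand, from the start: agTTTCGATTTCctatggccagccggctag
Ifih1, chr2:62646206-62646235, minus strand: gagaagagaatcGAAACAGAAAccgatctg
Eif2ak2, chr17:78882535-78882564, minus strand: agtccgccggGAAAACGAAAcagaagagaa
Adar, chr3:89730735-89730764, plus strand: gccttttcaagGAAACGAAAgtgaactctg

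Around the sensors, the genes of proteins that act on RIG-I split rather than moving as a group. Of 14 cofactors of the RIG-I-like receptors, 3 fell and 7 rose (median log2 fold change 0.17), beside 26.1% lower and 25.6% higher and a median of -0.0037 over all tested genes. Trim25, a ubiquitin ligase that activates RIG-I, fell to 76.0 ± 5.4 CPM with chemerin-9, against 194 ± 3.1 CPM in I/R (SD, n = 3 each; log2 fold change -1.35, adjusted p = 2.0e-11, edgeR). Ddx60, a helicase linked to RIG-I, averaged 2.11 ± 0.35 CPM with chemerin-9 and 7.35 ± 0.81 CPM in I/R. Prkra, the PKR activator PACT, also fell, by 0.41 on the log2 scale, and its call ended without chemerin-9 replicate 2 (adjusted p = 0.0509, edgeR). Among those that rose, the 14-3-3 gene Ywhae averaged 929 ± 6.1 CPM with chemerin-9 and 731 ± 8.7 CPM in I/R, and the helicase genes Ddx3x and Dhx29 rose by 0.46 and 0.50 on the log2 scale.

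Below and beside MAVS the kinases and adaptors were divided as well, while Irf7, the gene of the interferon-inducible factor IRF7, fell. Of 16 relay genes 4 fell and 7 rose (median log2 fold change -0.00080), beside 26.1% lower and 25.6% higher over all tested genes. Here too the share that fell was near that of genes at large. The share that rose was above it, a difference that was not tested. Irf7 averaged 10.4 ± 1.9 CPM with chemerin-9 and 45.0 ± 1.2 CPM in I/R (SD, n = 3 each; log2 fold change -2.10, adjusted p = 5.2e-10, edgeR). Its partner Irf3, named after its values were seen, held 22.7 ± 1.5 CPM with chemerin-9 and 25.5 ± 1.3 CPM in I/R and missed the threshold (adjusted p = 0.111, edgeR, log2 fold change -0.16). Ikbke, the interferon-inducible relative of Tbk1, averaged 9.58 ± 0.33 CPM with chemerin-9 and 14.4 ± 1.3 CPM in I/R. Tradd and Ikbkg, the adaptor and scaffold of the NF-kappaB branch, fell by 0.58 and 0.30 on the log2 scale, and Ikbkg shares transcribed bases with G6pdx. Traf3, the ligase between MAVS and TBK1, rose, with 90.8 ± 6.1 CPM with chemerin-9 and 63.2 ± 1.7 CPM in I/R. Tomm70a, a mitochondrial import receptor that binds MAVS, and the kinase gene Chuk rose by 0.30 and 0.39 on the log2 scale.

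Of 15 tested genes that restrain the pathway 4 fell and 7 rose (median log2 fold change 0.094), beside 26.1% lower and 25.6% higher over all tested genes. The share that fell was thus near that of genes at large, and the share that rose was above it, which was not tested. Pcbp1 and Pcbp2, RNA-binding proteins that promote the breakdown of MAVS, fell by 0.64 and 0.30 on the log2 scale, and Pcbp2 shares 1576 identical bases with a transcript of Map3k12. Usp21, a deubiquitinase of RIG-I, and Optn, an adaptor of TBK1, fell by 0.41 and 0.31. Atg5, whose conjugate with ATG12 binds RIG-I and MAVS, averaged 57.3 ± 2.0 CPM with chemerin-9 and 40.1 ± 1.7 CPM in I/R.

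Genes for partners of the endosomal receptors, not all of which serve TLR3, were called about as often as genes at large. Of the 8 tested, 3 fell and 1 rose (median log2 fold change -0.12), beside 26.1% lower and 25.6% higher over all tested genes. Unc93b1, which carries nucleic acid receptors to endosomes, averaged 16.2 ± 2.6 CPM with chemerin-9 and 27.2 ± 2.5 CPM in I/R (SD, n = 3 each; log2 fold change -0.74, adjusted p = 6.0e-05, edgeR). Ticam1, the gene of TRIF, averaged 9.11 ± 0.89 CPM with chemerin-9 and 14.7 ± 0.26 CPM in I/R. Wdfy1, which links TLR3 to TRIF, fell by 0.42 on the log2 scale. The kinase gene Irak4, which serves the other Toll-like receptors, rose by 0.54.

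Other proteins that bind or cleave double-stranded RNA had 9 of 16 tested genes lower and 1 higher (median log2 fold change -1.19), beside 26.1% lower and 25.6% higher over all tested genes. Of the 9, Oas1c, named after its values were seen, had only 5, 7 and 7 counts with chemerin-9 and 10, 16 and 22 in I/R, and passed the filter through the I/R libraries. The count was 8 when at least 1 CPM in 3 libraries was asked for, with DESeq2 and without any 1 of the chemerin-9 libraries. The oligoadenylate synthetase genes, whose products make the activator of RNase L, were among those that fell. Oasl2 fell by 2.70 on the log2 scale and Oas3 by 2.60, and Oas2, named after its values were seen, by 2.38 (adjusted p = 7.2e-09, edgeR). Oas1g fell by 2.07 and Oas1a by 1.72, this pair being 97.6% identical over 1861 bases and so uncertain as single genes. The gene that rose was Dhx9, by 0.11 on the log2 scale, a call that ended without chemerin-9 replicate 2 (adjusted p = 0.0785), without I/R replicate 2 (0.0539) and after removal of the GC and length trend (0.532). Of the 8 genes around eIF2alpha, 3 fell and 3 rose (median log2 fold change -0.057), not far from the shares over all tested genes. Eif2ak3 (PERK), another kinase of eIF2alpha, fell by 0.61 on the log2 scale and Eif2ak1 (HRI) rose by 0.28. Atf4 and Ddit3, the transcription factors downstream, fell by 0.32 each. Eif2s1, the gene of eIF2alpha, and the phosphatase subunit gene Ppp1r15b rose by 0.17 and 0.21, and the rise of Eif2s1, which has a copy of 96.6% identity over 947 bases, ended with the GC and length trend removed (adjusted p = 0.224).

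Cytosolic DNA sensing, a parallel route that also runs through TBK1, had 3 of 9 tested genes lower and 2 higher (median log2 fold change -0.080). These counts sit near the shares over all tested genes, 26.1% lower and 25.6% higher. Cgas, the DNA sensor, averaged 27.6 ± 1.5 CPM with chemerin-9 and 21.3 ± 2.5 CPM in I/R, and its adaptor Sting1 averaged 43.1 ± 2.5 CPM with chemerin-9 and 34.9 ± 1.3 CPM in I/R (SD, n = 3 each). Both rose, by 0.36 and 0.30 on the log2 scale (adjusted p = 0.00433 and 0.00139, edgeR). Aim2, an inflammasome sensor of DNA, fell by 0.30, and the RNase H2 subunit genes Rnaseh2a and Rnaseh2c fell by 0.22 and 0.47.

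Of 10 listed interferon genes 2 had a row, and both were below the filter on low counts. Ifnb1, the gene of interferon beta, had 0, 0 and 1 counts with chemerin-9 and 1, 0 and 0 in I/R. Ifne had 2, 9 and 0 counts with chemerin-9 and 1, 1 and 0 in I/R, and the other 8 were not analysed here. Of 11 genes of the interferon receptors and their factors 4 fell and 1 rose (median log2 fold change -0.015), beside 26.1% lower and 25.6% higher over all tested genes. Stat2 averaged 28.4 ± 2.0 CPM with chemerin-9 and 107 ± 4.9 CPM in I/R (SD, n = 3 each; log2 fold change -1.91, adjusted p = 6.2e-12, edgeR). Irf9, a DNA-binding partner of STAT2, fell by 1.12 on the log2 scale, and the receptor kinase gene Tyk2 by 0.68. The receptor subunit Ifnar2 rose, at 10.5 ± 0.62 CPM with chemerin-9 and 6.13 ± 0.52 CPM in I/R, while Ifnar1, named after its values were seen, held 71.9 ± 2.4 CPM with chemerin-9 and 72.7 ± 3.6 CPM in I/R (log2 fold change -0.015, adjusted p = 0.832, edgeR). Transcripts of Tyk2, Irak4, Ppp1r15b, Rnaseh2a and Rnaseh2c also match another annotated transcript at 95% identity or more, so their counts are uncertain. Such matches were also found for Ddx3x (186 bases), Irf9 (180), Stat2 (up to 152), Cgas (119) and Ddit3 (105). Among the members Ddx58, Tbk1 and Tlr3 had them, over at most 258 bases.

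**Figure D5:**
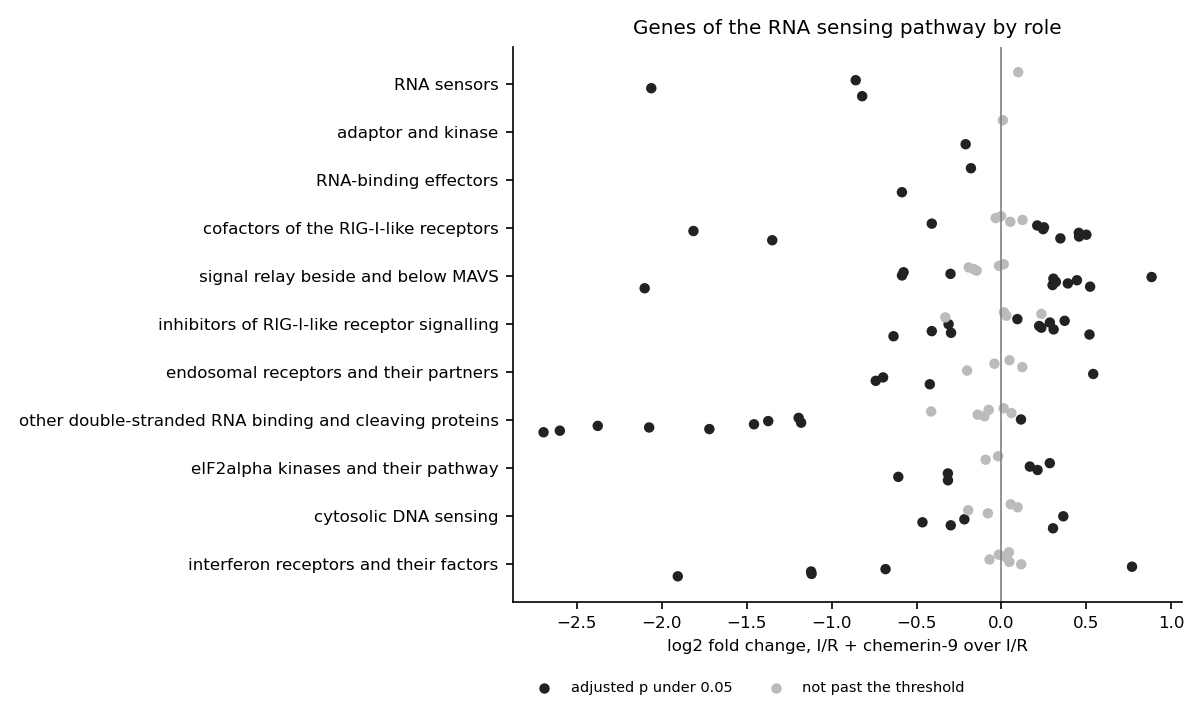
Log2 fold change, I/R with chemerin-9 over I/R, of each tested gene of the pathway, grouped by role from the RNA sensors (top) to the interferon receptors and their factors (bottom), with genes at an adjusted p under 0.05 in black and the rest in grey. The proteins that bind or cleave double-stranded RNA reach furthest to the left, and most lists have genes on both sides of 0.

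Across all 14181 other tested genes, the profiles nearest to the mean profile of the 3 RIG-I-like receptors over the 6 libraries were those of Mib2, Klhl21, Map3k8, Calr and Irf9. Their root mean square differences from it were 0.048 to 0.081 on the log2 scale. Ddx58, Ifih1 and Dhx58 themselves differed from their mean by 0.22, 0.23 and 0.44, since Dhx58 fell much further than the others. Mib2, a ubiquitin ligase, averaged 66.8 CPM with chemerin-9 and 157 CPM in I/R, and the endoplasmic reticulum chaperone Calr 519 CPM with chemerin-9 and 1215 CPM in I/R.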

How the data were processed

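Per the labels' protocols, libraries were made from total RNA with a Vazyme stranded mRNA kit. Per the submitters' processing notes, HISAT2 aligned reads, HTSeq counted them and DESeq 1.18.1 was used, with mm10. For the strand setting and annotation, the sources used here give nothing. The deposited counts are raw counts per symbol. Columns of the authors' own comparison (FDR, p-value, a fold ratio and its log2), as deposited, were not used. Of 25216 rows, 27 that repeated a symbol were dropped, keeping the first row. The rows of each repeated symbol had equal counts. Starts matched GENCODE M21 (GRCm38) for 97.5% of matched genes.

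Counts were tested with edgeR 4.0.16 (R 4.3.3): TMM, filterByExpr, quasi-likelihood fit on group, Benjamini-Hochberg adjustment over 14184 genes, checked on simulated data. CPM uses TMM-adjusted library sizes, and ratios a pseudocount of 0.5. The median tested gene had 295 to 434 counts per library, and no pair of libraries within a group agreed within sampling noise (chi-square per degree of freedom 1.82 to 6.25, the largest involving I/R replicate 3). Alternatives used DESeq2 1.42.0, limma-voom (limma 3.58.1), other scalings, filters, a block and left-out libraries. Near-identical transcripts were searched with BLAST 2.17.0 at 95% identity over 50% of the shorter transcript, and for members no stretch exceeded 258 bases. Motif sequences come from RefSeq (GRCm38.p6).

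Named are the 8 members, up to 4 genes with the smallest p per list, those of a direction with 5 or fewer calls, and the 5 nearest profiles. Members and lists were chosen with earlier results of these data known. A gene that the naming rule selects is not reported here, though the counts include it.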

Additional observations from a re-analysis of the deposited data

How the results depend on the processing

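Over 18 alternatives, 5 to 6 members were called lower and none higher, and the number of genes called among all tested ranged from 6312 to 8338, against 7336. Over 17 alternatives each, Ddx58, Ifih1, Dhx58, Eif2ak2 and Mavs stayed lower and past the threshold, with log2 fold changes of -0.88 to -0.75, -0.98 to -0.79, -2.26 to -1.90, -0.68 to -0.52 and -0.24 to -0.14. Plain library totals put 39.3% of all calls lower, against 50.4%. Some values near 0 changed sign: Tlr3 ranged from -0.19 to 0.32 with libraries left out, and was -0.021 without I/R replicate 3 and -0.023 after removal of the GC and length trend. Tbk1 ranged from -0.020 to 0.027 with libraries left out, was -0.016 without I/R replicate 3 and -0.054 after removal of that trend. Ifnar1 was 0.053 with plain library totals and ranged from -0.061 to 0.0078 with libraries left out, being 0.0023 to 0.0078 without chemerin-9 replicate 3, I/R replicate 1 or I/R replicate 2. The group difference in the log2 ratio of Adar to Mavs was -0.043 without I/R replicate 1 and up to 0.11 with others left out, against 0.037, and that of Tlr3 to Tbk1 was -0.21 without chemerin-9 replicate 1 and -0.037 without I/R replicate 3, and up to 0.28, against 0.054. No member held the ISRE core in the 250 bases before the start alone (0 members, against 3). The cause of these changes was not tested. Same-numbered libraries did not deviate together (correlations 0.10, -0.052 and 0.042), and with the replicate number as a block 6 members were still called lower and 7300 genes in all. Dhx58, Ifih1 and Tlr3 rest on few counts, which limits their precision.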
